A study of Homo sapiens with 18 samples.

Results

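Peaks lying outside the assembled chromosomes of the human genome were examined in A549 cells, a human lung adenocarcinoma line. Members were all peaks in 12 deposited lists on a sequence other than chromosomes 1 to 22, X, Y and the mitochondrial genome. They numbered 42218 of 905101 peaks, on 398 sequences. CUT&Tag was the assay: a transposase tethered to an antibody cuts and tags the DNA next to the protein that the antibody recognises. Lists made with an antibody against ARID1A and lists made with an antibody against YTHDF1 came from YTHDF1-knockout cells (YTHDF1-KO), from cells treated with siRNA against ARID1A (siARID1A) and from wild-type cells (WT), with 2 replicates for each of the 6 combinations. The labels say neither whether the knockout is 1 clone nor whether replicates were separate cultures, and p-values here measure the spread between lists, which may be technical. The labels also name no control siRNA, so ARID1A knockdown and siRNA treatment itself cannot be told apart in siARID1A against WT. IgG controls (6 samples) and cells with both treatments were not analysed here.

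The set was selected as unplaced and unlocalized contigs, but the sequence names went against that description for most peaks. Only 80 of the 398 sequences had the GL or KI names of unplaced and unlocalized scaffolds, and they held 4800 peaks, or 11.4% of the members. Another 258 sequences, with 28454 peaks, were alternate loci (names beginning CHR_HSCHR), and 60, with 8964 peaks, were patches and related additions (names beginning CHR_HG). The whole set is therefore called extra-chromosomal sequences here, in the sense of the assembly and not of extrachromosomal DNA in the cell, and the 3 classes are given apart. The division by name was made after the lists were seen.

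An unlocalized scaffold is known to belong to a chromosome without a place on it, and an unplaced scaffold has no chromosome assigned. Both kinds are rich in repeats such as ribosomal DNA and satellites, which exist in many more copies in a cell than in the assembly, so reads from all copies pile up on the few assembled ones. An alternate locus is a second version of a region that varies between people, for example the major histocompatibility complex, and a patch corrects or extends a region. Reads from a region with a second version can align to either. ARID1A is a subunit of the BAF (SWI/SNF) chromatin remodelling complex, and YTHDF1 binds RNA that carries N6-methyladenosine and is best known from the cytoplasm.

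Among member regions held by every list, the 2 of highest mean percentile of total signal lay on scaffolds that carry ribosomal RNA genes. A ribosomal DNA unit holds a 45S precursor gene, which gives the 18S, 5.8S and 28S rRNAs, followed by a long intergenic spacer. No sequence of the scaffolds themselves was used here. The microRNAs annotated within the unit on chromosome 21, a near-identical copy, are shown to give fixed points along it, with the seed (bases 2 to 8) in capitals and sequences from RefSeq (GRCh38.p14).
hsa-miR-6724-5p: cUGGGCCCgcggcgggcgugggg
hsa-miR-10396b-5p: cGGCGGGGcucggagccggg
hsa-miR-10396b-3p: gGCCCCGGgcccucgaccggac
The hairpin of miR-6724 (copy MIR6724-4) starts 692 bases before the 45S gene RNA45SN1, at chr21:8432530-8432621 on the plus strand, and that of MIR10396B starts 3102 bases after the gene's start, in the part of the precursor that is removed. At the same distance before the 45S gene, all 12 lists had a peak on both ribosomal DNA scaffolds. At the distance of MIR10396B, 0 lists had a peak on GL000220.1 and 2 lists had one on KI270733.1.

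The anti-ARID1A lists held 74289 to 110958 peaks without the mitochondrial one, and the anti-YTHDF1 lists 43410 to 63591. Chromosomal peaks covered 99 to 266 Mb in the anti-ARID1A lists and 49.4 to 89.6 Mb in the anti-YTHDF1 lists. The part of this coverage in the differences between antibodies was not tested. The scale of the signal was set by the authors for each library and the sequencing depth is unknown, so signal is given here only as a share of a list's own non-mitochondrial signal. The single mitochondrial peak held 44.9% and 49.5% of all signal in the siARID1A anti-ARID1A lists and 18.1% to 38.5% in the other 10. Peaks overlapped the YTHDF1 gene in 12 lists and the ARID1A gene in 11, which says nothing about the amount of either protein.

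Extra-chromosomal sequences took a smaller share of the signal with the ARID1A antibody than with the YTHDF1 antibody. With anti-ARID1A they held 3.69% and 3.59% in YTHDF1-KO, 4.80% and 4.36% in siARID1A and 3.35% and 3.44% in WT. With anti-YTHDF1 they held 7.75% and 7.73% in YTHDF1-KO, 7.68% and 6.75% in siARID1A and 7.30% and 8.15% in WT. All 6 anti-ARID1A lists lay below all 6 anti-YTHDF1 lists. The gap was present in YTHDF1-KO cells as well as in WT, and whether it reflects YTHDF1 protein was not tested. The means were 3.87% ± 0.577 and 7.56% ± 0.481 (SD, n = 6 each), and the difference of -3.69 percentage points had an exact two-sided permutation p of 0.00216, the smallest that 6 against 6 lists allow (adjusted p = 0.013 by the Benjamini-Hochberg method over 12 tests).

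The number of these peaks was similar while their share of each list was not. The anti-ARID1A lists held 2995 to 4057 such peaks (median 3642.5), and the anti-YTHDF1 lists 2833 to 3910 (median 3450.5). The difference in mean of 130 peaks was within the spread (exact permutation p = 0.589, adjusted 0.733). It was 5.6 peaks without WT anti-YTHDF1 replicate 2 and 247 without siARID1A anti-ARID1A replicate 1, the lowest and highest of the 12 values with 1 list left out. They made up 3.77% ± 0.169 of peaks with anti-ARID1A and 6.25% ± 0.336 with anti-YTHDF1 (SD, n = 6 each), with no overlap between the antibodies (exact permutation p = 0.00216, adjusted 0.013). When every list was cut to its 43410 peaks of highest signal, the difference in mean number was -1186 peaks (anti-ARID1A minus anti-YTHDF1, exact permutation p = 0.00216).

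Peak widths lay close to those of the chromosomes, slightly below them with anti-ARID1A and slightly above them with anti-YTHDF1. The median width was 1585 and 1475 bp in YTHDF1-KO, 1080 and 1186 bp in siARID1A and 1613 and 1639 bp in WT with anti-ARID1A. With anti-YTHDF1 it was 1094 and 1127 bp in YTHDF1-KO, 1105.5 and 1184 bp in siARID1A and 1264 and 1138 bp in WT. The siARID1A anti-ARID1A lists had the narrowest peaks of the 6 anti-ARID1A lists, and their chromosomal peaks were narrow too, with medians of 1104 and 1243 bp. The mean of the list medians was 278 bp higher with anti-ARID1A, which missed the threshold after adjustment (exact permutation p = 0.0368, adjusted 0.147) but passed it without siARID1A anti-ARID1A replicate 1 (adjusted p = 0.0173, exact permutation). Within lists, the log2 median width on these sequences minus that of chromosomal peaks was -0.06 ± 0.02 with anti-ARID1A, below 0 in all 6 lists, and 0.04 ± 0.04 with anti-YTHDF1, above 0 in all 6 (SD, n = 6 each). Pooled over both antibodies, which differ in sign, it was -0.01 ± 0.06 (SD, n = 12 lists; exact sign-flip p = 0.567).

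**Figure D1:**
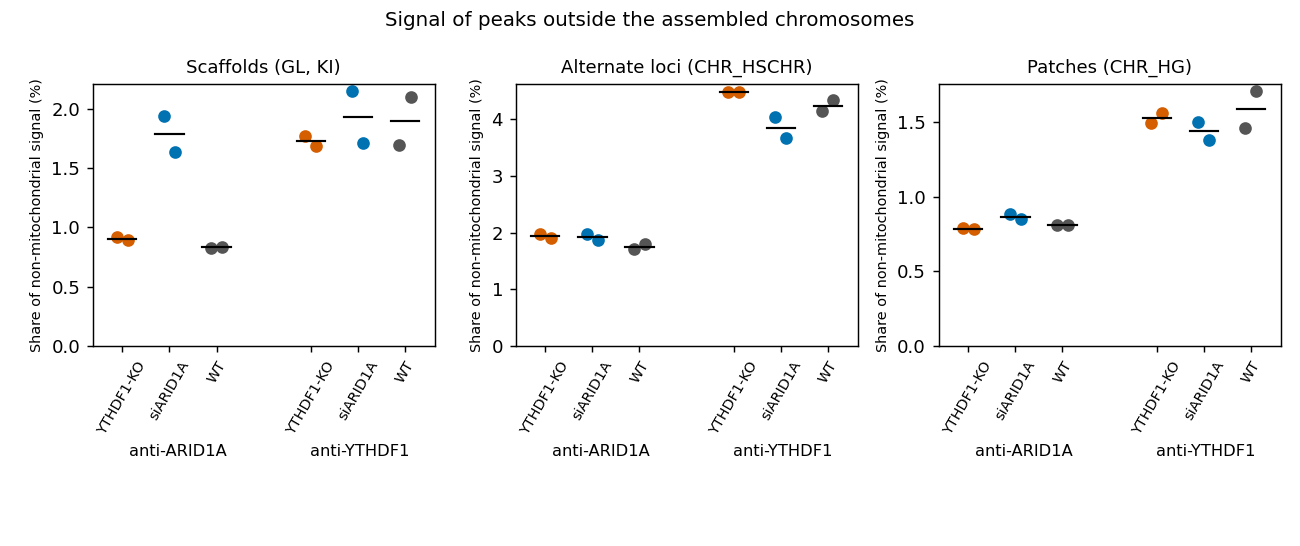
Share of non-mitochondrial peak signal (%) on scaffolds, alternate loci and patches. Each point is 1 list, bars are means of 2, and colours mark YTHDF1-KO, siARID1A and WT; alternate loci and patches were lower in all anti-ARID1A lists, while scaffolds in the siARID1A anti-ARID1A lists reached 1.94% and 1.64%.

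The mean share was lower with anti-ARID1A in each class. Alternate loci held 1.88% ± 0.106 with anti-ARID1A and 4.195% ± 0.319 with anti-YTHDF1, and patches 0.820% ± 0.0379 and 1.52% ± 0.112 (SD, n = 6 each; exact permutation p = 0.00216 for both). Scaffolds held 1.18% ± 0.485 with anti-ARID1A and 1.85% ± 0.215 with anti-YTHDF1 (SD, n = 6 each; exact permutation p = 0.0238, 0.0952 after the adjustment over 12 tests). The scaffold ranges overlapped, with the siARID1A lists highest among the 6 anti-ARID1A lists.

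A gap between antibodies was also present on the chromosomes at the places that the alternate loci represent. Positions on alternate loci are numbered as on their chromosome, so each was set beside the interval of the same numbers, 54.2 Mb in all. Those intervals held 1.65% ± 0.0709 of signal with anti-ARID1A and 3.43% ± 0.216 with anti-YTHDF1 (SD, n = 6 each; exact permutation p = 0.00216), a ratio of 0.480 beside 0.447 for the alternate loci. Over 12 lists the mean share of an alternate locus was 1.03 times that of its interval at the median of the 224 loci with signal on both, and 183 of them lay between 0.5 and 2 times. The 7 alternate loci of the major histocompatibility complex (chr6:28542014-33619045), which encodes the antigen-presenting HLA molecules, share 1 stretch of chromosome 6, so their sum was set beside that stretch once. Together they held 0.101% ± 0.0119 with anti-ARID1A and 0.317% ± 0.0752 with anti-YTHDF1 (SD, n = 6 each), and the stretch itself held 0.0448% ± 0.000995 and 0.0845% ± 0.016. In single lists the sum of the 7 loci was 2.06 to 4.33 times the stretch, which is less than 1 time for the average locus.

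**Figure D2:**
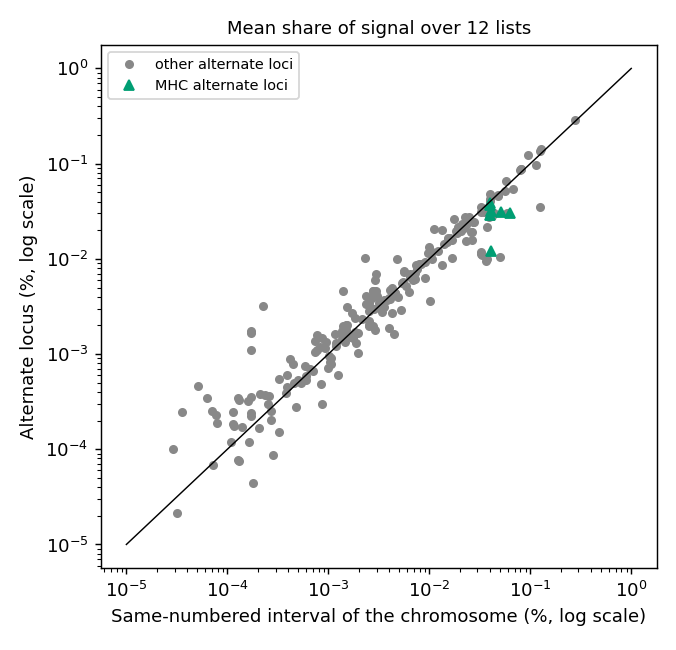
Mean share of signal over 12 lists of each alternate locus (vertical axis, %, log scale) against the same-numbered interval of its chromosome (horizontal axis, %, log scale). The line marks equal shares, and triangles are loci of the major histocompatibility complex; 183 of 224 loci lie between 0.5 and 2 times their interval.

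Scaffold peaks stood out within their own lists. Their median percentile of total signal was 55.2 to 63.95 in the anti-ARID1A lists and 66.4 to 73.8 in the anti-YTHDF1 lists, and their median percentile of signal per base was 62.9 to 66.7 and 62.9 to 75.5. Chromosomal peaks had medians of 49.6 to 50.1 on both scales. Alternate loci had median percentiles of total signal of 43.6 to 47.1 with anti-ARID1A and 49.2 to 54.1 with anti-YTHDF1. Over all members the percentile of signal per base was 1.62 ± 1.499 points above that of chromosomal peaks, higher in 11 of 12 lists (SD, n = 12; exact sign-flip p = 0.00537), and over alternate loci and patches alone it differed by -0.0375 points (exact sign-flip p = 0.93).

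Scaffold regions also recurred most often. When the peaks of all lists were merged (overlap of at least 1 bp), 82 of 683 scaffold regions were held by all 12 lists, or 12.01% (Wilson 95% interval 9.78% to 14.7%, which covers counting error only). The share was 3.97% of 6674 regions on alternate loci, 4.75% of 1981 on patches and 2.99% of 194670 on chromosomes. Merged scaffold regions can be long, and with the requirement that a list cover at least 50% of the region 3.07% of the scaffold regions and 0.0642% of the chromosomal ones were held by all 12. Of the 398 sequences, 204 had a peak in every list and 32 in a single list.

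The strongest sequences were a mixture of classes. The 12 with the largest mean share held 34.1% of the members' signal. In order they were CHR_HSCHR17_7_CTG4 (0.29%), KI270733.1 (0.227%), GL000220.1 (0.215%), GL000225.1 (0.188%), CHR_HG26_PATCH (0.175%), CHR_HSCHR16_1_CTG1 (0.144%), CHR_HG2002_PATCH (0.136%), CHR_HSCHR8_3_CTG7 (0.135%), CHR_HSCHR17_2_CTG5 (0.123%), CHR_HG76_PATCH (0.107%), CHR_HG2419_PATCH (0.105%) and GL000205.2 (0.105%). This order pools the antibodies, and each gave another. With anti-ARID1A, GL000225.1 (0.190%), KI270733.1 (0.177%) and CHR_HSCHR17_7_CTG4 (0.175%) came first, and CHR_HG2002_PATCH (0.0404%) was lowest of the 12. With anti-YTHDF1, CHR_HSCHR17_7_CTG4 (0.406%), GL000220.1 (0.290%), KI270733.1 (0.277%) and CHR_HG2002_PATCH (0.231%) came first. CHR_HSCHR17_7_CTG4 spans chr17:35765557-38642508, an interval with 47 protein-coding genes on the chromosome. Among them are the chemokine genes CCL3, CCL4 and CCL5, copies of the TBC1D3 family and ACACA, which encodes acetyl-CoA carboxylase. CHR_HSCHR16_1_CTG1 (chr16:14427349-17014218) covers an interval with 24, among them the smooth muscle myosin MYH11, the drug transporter ABCC1 and copies of the NPIPA family. GL000225.1 is an unlocalized scaffold of chromosome 14 and GL000205.2 one of chromosome 17.

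**Figure D3:**
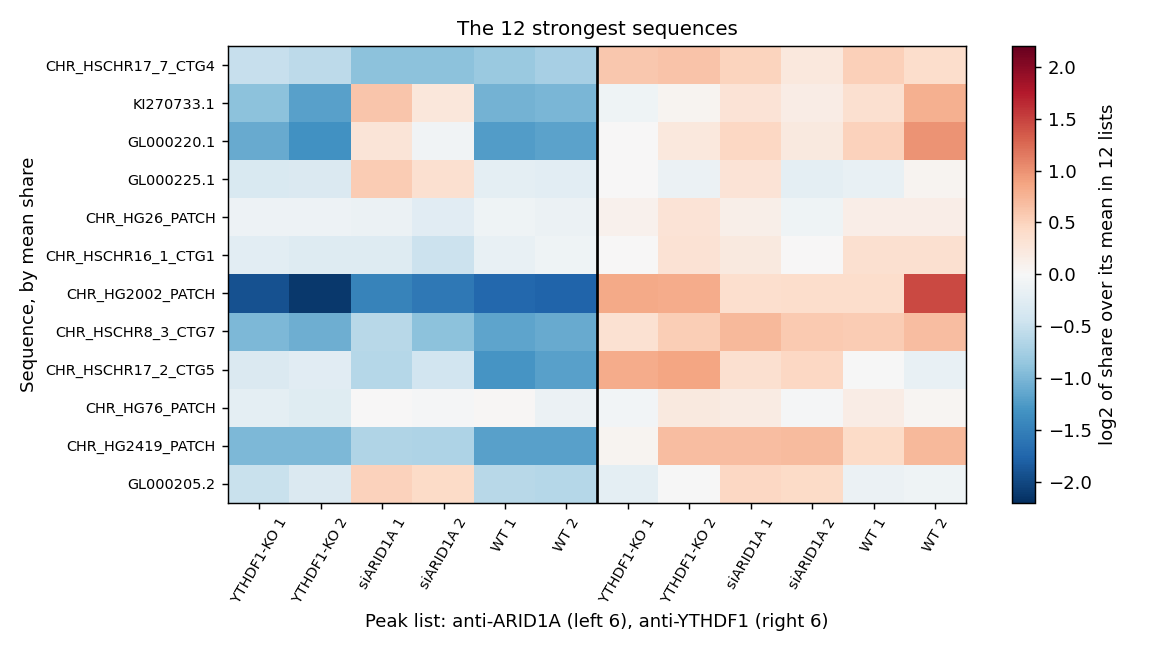
Share of signal on the 12 strongest sequences in each list, as log2 of the share over the sequence's mean in the 12 lists. Rows are ordered by mean share from 0.29% to 0.105%, and the left 6 columns are anti-ARID1A; CHR_HG2002_PATCH shows the widest gap between antibodies of the 12 rows.

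Sequence by sequence, anti-ARID1A was lower in 154 of 398 members and higher in 11 (exact permutation test of each share, adjusted by the Benjamini-Hochberg method over 422 sequences, threshold 0.05). Over all 422 sequences, chromosomes included, 37.2% were called lower and 4.98% higher. The members, which make up most of the 422, were called lower in 38.7% and higher in 2.76%. Of the 24 chromosomes, 3 were lower and 10 higher, and their median ratio of anti-ARID1A to anti-YTHDF1 shares was 1.07. The same median ratio was 0.409 over members and 0.44 over all 422. By class, 24 of 80 scaffolds, 109 of 258 alternate loci and 21 of 60 patches were lower with anti-ARID1A, and 0, 6 and 5 were higher.

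The 5 called sequences furthest below in percentage points were CHR_HSCHR17_7_CTG4, CHR_HG2002_PATCH, GL000220.1, CHR_HSCHR8_3_CTG7 and CHR_HSCHR1_1_CTG3. CHR_HSCHR1_1_CTG3 lies at chr1:2449063-2796998, an interval that holds TNFRSF14, a receptor on immune cells, and HES5, a repressor in Notch signalling. It held 0.026% ± 0.0071 with anti-ARID1A and 0.147% ± 0.0179 with anti-YTHDF1 (SD, n = 6 each; adjusted exact permutation p = 0.00714). CHR_HSCHR17_7_CTG4 held 0.175% ± 0.0202 and 0.406% ± 0.0396 (SD, n = 6 each; adjusted exact permutation p = 0.00714). In the other direction the differences were small. The 5 largest were on CHR_HG2088_PATCH, CHR_HG2095_PATCH, CHR_HSCHR12_9_CTG2_1, CHR_HSCHR7_2_CTG4_4 and CHR_HSCHR1_8_CTG3. CHR_HG2088_PATCH held 0.0209% ± 0.00222 with anti-ARID1A and 0.0117% ± 0.00455 with anti-YTHDF1 (SD, n = 6 each; adjusted exact permutation p = 0.0236). CHR_HSCHR12_9_CTG2_1 held 0.00766% ± 0.00198 and 0.00165% ± 0.00177 (SD, n = 6 each; adjusted exact permutation p = 0.00714), and 2 anti-YTHDF1 lists, both siARID1A, had no peak there.

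Peaks were found with a single antibody on sequences of little signal. Of these, 20 sequences had peaks in anti-ARID1A lists alone, in at most 5 lists each, and 39 in anti-YTHDF1 lists alone. Of the 39, 24 had a peak in 1 list. CHR_HSCHR8_2_CTG1 was the only one of the 39 held by all 6 anti-YTHDF1 lists, with 25 peaks in all and a mean share of 0.00335% over the 12 lists.

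Ribosomal DNA supplied the 2 member regions of highest mean percentile. Among member regions held by every list, the 5 with the highest mean percentile of signal were KI270733.1:133639-170572, GL000220.1:113229-151905, GL000205.2:83952-92173, CHR_HG2023_PATCH (190109526-190116257) and GL000214.1:114482-137715. Their mean percentiles within a list were 99.99 for KI270733.1, 99.99 for GL000220.1, 99.95 for GL000205.2 and 99.92 for CHR_HG2023_PATCH and GL000214.1. These are percentiles of a peak's total signal, which depends on its width. The merged regions were 36934, 38677, 8222, 6732 and 23234 bp wide, in the same order. The first 2 regions begin within the 45S gene, cover the intergenic spacer after it and run past the spacer's end. RNA45SN5 lies on GL000220.1 at 105424-118780 and RNA45SN4 on KI270733.1, an unlocalized scaffold of chromosome 22, at 122273-135645. The RefSeq table gives these positions without naming the scaffold, which was taken from knowledge of the assembly.

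On GL000220.1 the strongest peak was 27652 to 33427 bp wide in the anti-ARID1A lists and 16995 to 27935 bp wide in the anti-YTHDF1 lists. In 11 of the 12 lists it began close to the end of the 45S gene, and in YTHDF1-KO anti-ARID1A replicate 1 it began within it, at position 113232. Peaks covered 95.3% to 99.2% of the 30.6 kb of spacer, whose end was set from the 18S copy of the next unit. The rRNA genes were covered less evenly. Of the 12 lists, 11 had a peak on the 18S gene RNA18SN5, 7 on the 5.8S gene RNA5-8SN5 and 12 on the 28S gene RNA28SN5. On KI270733.1 these numbers were 11 for RNA18SN4, 3 for RNA5-8SN4 and 12 for RNA28SN4.

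Over the 45S gene the anti-ARID1A lists lay below the anti-YTHDF1 lists without overlap. Signal of a peak was spread evenly along it for this comparison. The 45S gene of GL000220.1 held 0.0151% and 0.00517% of signal in YTHDF1-KO, 0.00582% and 0.00875% in siARID1A and 0.00715% and 0.00669% in WT with anti-ARID1A. With anti-YTHDF1 it held 0.0263% and 0.0312% in YTHDF1-KO, 0.0201% and 0.0212% in siARID1A and 0.0349% and 0.0545% in WT. The ranges did not overlap, and the mean was 0.259 times as high with anti-ARID1A (exact permutation p = 0.00216). On KI270733.1 the ratio for the 45S gene was 0.262 (exact permutation p = 0.00216). For the spacer the ratio was 0.536 on GL000220.1 (exact permutation p = 0.0303) and 0.791 on KI270733.1 (exact permutation p = 0.387). Set against each other, signal per base in the spacer over that in the gene was 6.75 ± 5.31 with anti-ARID1A and 3.05 ± 1.104 with anti-YTHDF1 on GL000220.1 (SD, n = 6 each; exact permutation p = 0.0823), and 6.57 ± 4.12 and 2.31 ± 0.743 on KI270733.1 (SD, n = 6 each; exact permutation p = 0.0152), with overlapping ranges on both. By condition, the antibody ratio on GL000220.1 was 0.353 for the gene and 0.419 for the spacer in YTHDF1-KO, 0.353 and 0.943 in siARID1A, and 0.155 and 0.268 in WT. On KI270733.1 it was 0.232 and 0.584 in YTHDF1-KO, 0.389 and 1.41 in siARID1A, and 0.218 and 0.376 in WT. The KI270733.1 spacer was thus higher with anti-ARID1A in siARID1A and lower in the other conditions. These p-values are unadjusted, from 32 measures compared after the data were seen. The 2 scaffolds and the copies on chromosome 21 are near-identical, so reads cannot be assigned to 1 of them and the scaffolds are not independent.

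**Figure D4:**
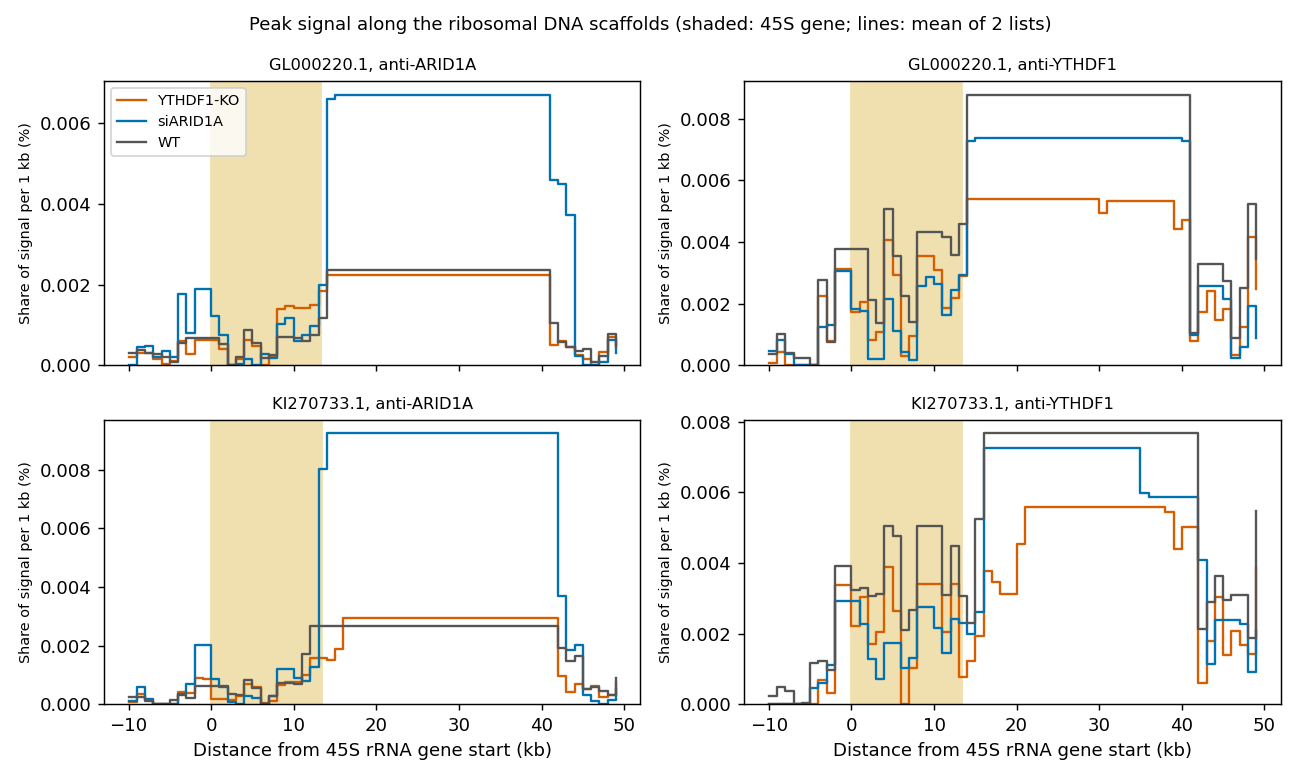
Peak signal in 1 kb bins (% of a list's non-mitochondrial signal) against distance from the 45S gene start in kb, on GL000220.1 and KI270733.1. Lines are means of 2 lists for YTHDF1-KO, siARID1A and WT, with each peak's signal spread evenly, and the shaded band is the 45S gene; with anti-ARID1A the siARID1A line stands above both others over the spacer.

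With the ARID1A antibody, both siARID1A lists had more spacer signal than both WT lists. The spacer of GL000220.1 held 0.223% and 0.168% in siARID1A, against 0.0634% and 0.0696% in WT with anti-ARID1A. With anti-YTHDF1 it held 0.227% and 0.187% in siARID1A, against 0.215% and 0.282% in WT. The siARID1A lists lay above WT with anti-ARID1A and overlapped WT with anti-YTHDF1. On KI270733.1 the spacer held 0.310% and 0.235% in siARID1A, against 0.0787% and 0.0848% in WT with anti-ARID1A, and 0.194% and 0.191%, against 0.196% and 0.240% in WT with anti-YTHDF1. KI270733.1 as a whole was 2.75 times as high in siARID1A as in WT with anti-ARID1A and 0.779 times with anti-YTHDF1, GL000220.1 2.50 and 0.743 times. For each whole scaffold the siARID1A lists lay above WT with anti-ARID1A and below WT with anti-YTHDF1, without overlap. That pattern alone fixes the exact permutation p of the difference between antibodies at 0.0556, the smallest that 36 splits allow. The p therefore adds no support. The ribosomal DNA of chromosome 21 gave 2.68 times with anti-ARID1A and 0.806 times with anti-YTHDF1.

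The ratio of spacer to gene signal was higher in siARID1A than in WT with both antibodies. Signal per base in the spacer of GL000220.1 was 16.7 and 8.37 times that in the 45S gene in siARID1A and 3.87 and 4.54 times in WT with anti-ARID1A. With anti-YTHDF1 it was 4.93 and 3.86 times in siARID1A and 2.68 and 2.26 times in WT. On KI270733.1 it was 12.2 and 10.9 times in siARID1A and 2.84 and 3.38 times in WT with anti-ARID1A, and 2.95 and 3.49 times in siARID1A and 2.13 and 1.59 times in WT with anti-YTHDF1. The siARID1A lists lay above WT in all 4 of these comparisons. That pattern alone fixes the exact permutation p over both antibodies together at 0.0556, the smallest possible, so the p adds no support. The parts of the ratio differed by antibody. With anti-ARID1A the spacer was 2.94 times WT on GL000220.1 and 3.33 times on KI270733.1, and the gene overlapped WT (1.05 and 0.889 times). With anti-YTHDF1 the gene lay below WT without overlap (0.462 and 0.498 times). The spacer with anti-YTHDF1 was 0.833 times WT, with overlap, and 0.885 times, without overlap. In YTHDF1-KO the ratios of spacer to gene overlapped those of WT on both scaffolds with both antibodies. With anti-YTHDF1, however, spacer and gene signal each lay below WT without overlap. They were 0.605 and 0.643 times WT on GL000220.1 and 0.653 and 0.634 times on KI270733.1. With anti-ARID1A they overlapped WT, except for the gene of KI270733.1, which lay below WT (0.674 times). Since signal was spread evenly along a peak, the ratio of spacer to gene also depends on where the wide spacer peak begins. On KI270733.1, whose 45S gene ends at 135645, it began at 133653 and 133639 in WT with anti-ARID1A. In siARID1A with that antibody it began at 135358 and 135463. The part of this in the ratios was not tested.

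Scaffolds other than GL000220.1 and KI270733.1 held 1.33% and 1.17% in siARID1A, against 0.626% and 0.630% in WT with anti-ARID1A, and 1.57% and 1.21% in siARID1A, against 1.10% and 1.28% in WT with anti-YTHDF1. Over all scaffolds the share was 2.15 times that of WT with anti-ARID1A and 1.02 times with anti-YTHDF1, and the difference between antibodies did not pass (exact permutation p = 0.278). The same 2 anti-ARID1A lists had the largest mitochondrial share, 2.52 times that of WT, and covered 99 and 128 Mb of chromosomes, against 228 Mb and more in the other anti-ARID1A lists. The part of these in the scaffold values was not tested.

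The 5S rRNA, the ribosomal RNA that is transcribed apart from the 45S unit, comes from an array on chromosome 1. CHR_HG2002_PATCH carries numbers (228408826-228737896) that span those of the 17 annotated RNA5S genes (chr1:228610266-228646158), although its name gives no chromosome. In every list the strongest peak of the patch lay before the numbers of these genes, with its end at 228596451 or earlier. In WT anti-YTHDF1 replicate 2 that peak (228568741-228595517) held 0.149%, beside 0.373% for the whole patch. How much of the patch's signal belongs to the 5S genes was not tested. The whole patch held 0.0404% ± 0.00638 with anti-ARID1A and 0.231% ± 0.0763 with anti-YTHDF1 (SD, n = 6 each), a ratio of 0.175 (adjusted exact permutation p = 0.00714). The array on chromosome 1 had a ratio of 0.196. In YTHDF1-KO the patch held 0.0357% and 0.0312% with anti-ARID1A and 0.242% and 0.240% with anti-YTHDF1. In siARID1A it held 0.0487% and 0.0457%, against 0.0408% and 0.04% in WT with anti-ARID1A, and 0.175% and 0.178%, against 0.178% and 0.373% in WT with anti-YTHDF1. The WT lists with anti-YTHDF1 spanned a wider range than any other pair.

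Over all members together, no difference between a cell condition and WT in number, share of peaks, share of signal or width passed the test. YTHDF1-KO minus WT was 0.128 percentage points for the signal share (exact permutation p = 0.611 within antibodies), and siARID1A minus WT was 0.336 points (exact permutation p = 0.556). For the median width YTHDF1-KO minus WT was -93.25 bp (exact permutation p = 0.0556, adjusted 0.167) and siARID1A minus WT was -275 bp (exact permutation p = 0.111, adjusted 0.267). With 2 lists per antibody and condition, 0.0556 is the smallest p that can be reached.

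Single sequences were therefore described by whether their lists overlapped. YTHDF1-KO lay above WT without overlap with both antibodies on 36 of 398 members, and below on 14. Over all 422 sequences 9.72% lay above and 3.79% below, close to the members' shares. siARID1A lay above WT on 35 members and below on 20, against 8.53% above and 5.21% below over all 422. Among members above WT in YTHDF1-KO were 13 scaffolds, 19 alternate loci and 4 patches, and in siARID1A 11, 20 and 4.

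Alternate loci of the far part of chromosome 17 were among the members above WT in both conditions. CHR_HSCHR17_2_CTG5 (chr17:45310128-46731202) is an alternate form of 17q21.31. Its interval holds MAPT, the gene of the microtubule protein tau, and the corticotropin-releasing hormone receptor CRHR1. It also holds KANSL1, a subunit of a histone acetyltransferase complex. With anti-ARID1A this alternate locus held 0.0991% and 0.103% in YTHDF1-KO, 0.0798% and 0.0918% in siARID1A and 0.0498% and 0.0535% in WT. With anti-YTHDF1 it held 0.217% and 0.223% in YTHDF1-KO, 0.156% and 0.169% in siARID1A and 0.122% and 0.109% in WT. YTHDF1-KO was highest, siARID1A next and WT lowest with each antibody, with no overlap. The ratio to WT was 1.95 in YTHDF1-KO and 1.66 in siARID1A with anti-ARID1A, and 1.904 and 1.41 with anti-YTHDF1.

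**Figure D5:**
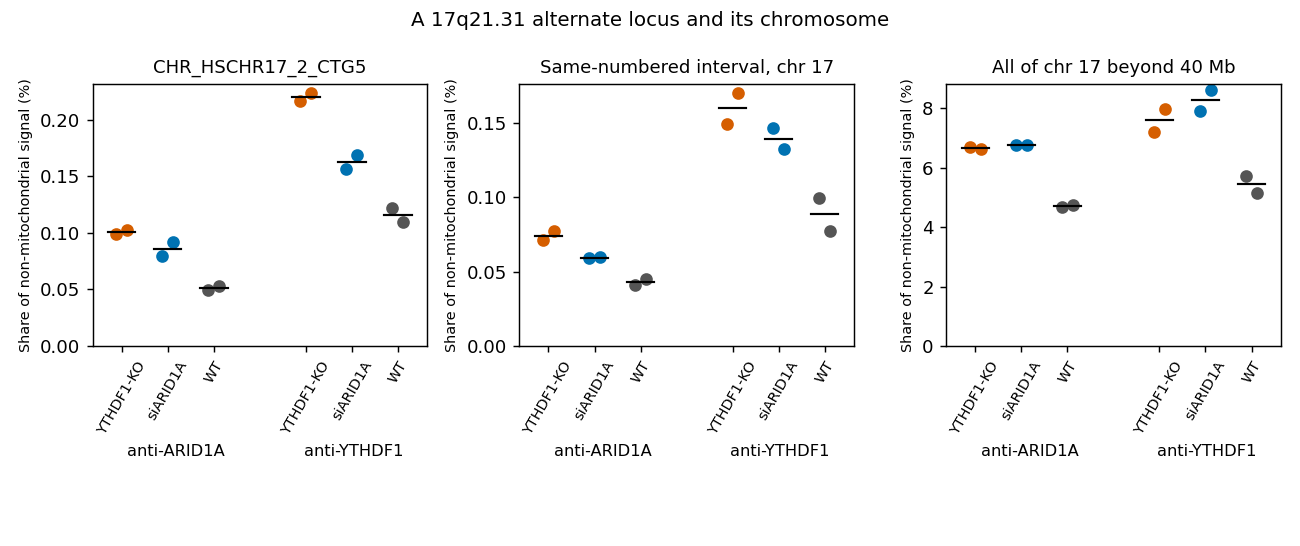
Share of signal (%) on the 17q21.31 alternate locus CHR_HSCHR17_2_CTG5, on the same-numbered interval of chromosome 17 and on all of chromosome 17 beyond 40 Mb. Points are lists and bars means of 2; in all 3 panels YTHDF1-KO and siARID1A lie above WT for both antibodies.

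On chromosome 17 itself, both conditions also lay above WT beyond 40 Mb. All peaks there held 6.72% and 6.65% in YTHDF1-KO, 6.78% and 6.78% in siARID1A and 4.69% and 4.73% in WT with anti-ARID1A. With anti-YTHDF1 they held 7.20% and 7.99% in YTHDF1-KO, 7.91% and 8.64% in siARID1A and 5.73% and 5.14% in WT. The ratio to WT was 1.42 in YTHDF1-KO and 1.44 in siARID1A with anti-ARID1A, and 1.40 and 1.52 with anti-YTHDF1 (exact permutation p = 0.0556 for each condition, the smallest possible). Lists that lie above WT without overlap with both antibodies always give this p. The 12 alternate loci of that part gave 1.67 and 1.46 with anti-ARID1A and 1.68 and 1.37 with anti-YTHDF1. Before 40 Mb the ratios of chromosome 17 lay between 0.964 and 1.03. More copies of the DNA and more binding on each copy cannot be told apart in these lists.

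Other named members lay apart from WT in both conditions or in 1. CHR_HSCHR1_1_CTG3 held 0.0283% and 0.0241% in YTHDF1-KO, 0.0366% and 0.0298% in siARID1A and 0.0167% and 0.0205% in WT with anti-ARID1A. KI270438.1, an unplaced scaffold, held 0.0223% and 0.0203% in YTHDF1-KO, 0.042% and 0.0347% in siARID1A and 0.00743% and 0.00748% in WT with anti-ARID1A. It held 0.0585% and 0.0391% in YTHDF1-KO, 0.0702% and 0.0404% in siARID1A and 0.0265% and 0.0339% in WT with anti-YTHDF1. Both sequences lay above WT in either condition with either antibody.

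CHR_HSCHR16_1_CTG1 lay below WT in both conditions. Its ratio to WT was 0.914 in YTHDF1-KO and 0.839 in siARID1A with anti-ARID1A, and 0.879 and 0.848 with anti-YTHDF1. CHR_HSCHR17_7_CTG4 was 1.17 times WT in YTHDF1-KO with anti-ARID1A and 1.12 times with anti-YTHDF1. CHR_HSCHR2_3_CTG15 was 0.622 and 0.739 times WT in YTHDF1-KO with anti-ARID1A and with anti-YTHDF1. The 17 alternate loci of chromosome 2 together were 0.624 and 0.738 times WT in YTHDF1-KO. Their same-numbered intervals on the chromosome were also lower, 0.741 and 0.775 times. CHR_HSCHR17_1_CTG5 was 1.74 and 1.57 times WT and CHR_HSCHR17_1_CTG9 1.48 and 1.43 times, in the same order of antibodies. These 2 also lie beyond 40 Mb of chromosome 17.

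In siARID1A, GL000205.2 held 0.15% and 0.141%, against 0.0688% and 0.0682% in WT with anti-ARID1A, and 0.144% and 0.141%, against 0.0962% and 0.0983% in WT with anti-YTHDF1. The groups did not overlap with either antibody. CHR_HSCHR11_1_CTG8, whose interval holds HRAS and the interferon regulator IRF7, was 1.51 and 1.08 times WT with anti-ARID1A and with anti-YTHDF1. CHR_HG30_PATCH was 1.44 and 1.22 times WT and CHR_HSCHR17_1_CTG2 1.08 and 1.06 times. CHR_HG26_PATCH was 0.949 and 0.918 times WT.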

How the data were processed

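The 12 deposited peak lists give, per peak, a position, a total signal and a highest signal; the authors' signal is coverage on a scale of each library, and each list was called per sample. Tools named in the submitters' processing notes are SEACR 1.3, deepTools 3.5.2, bedtools 2.30.0, Bowtie2 2.4.2, fastp 0.23.2 and SAMtools 1.9, with hg38 and GRCh38 as builds. How reads that align to several places were treated, and the part of IgG in peak calling, is not stated there. Sequences named other than 1 to 22, X, Y or MT were taken, and shares are of a list's non-mitochondrial total signal. Depth is unknown, so no interval for a share of signal is given.

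Tests were exact and two-sided: permutation of 6 against 6 lists between antibodies, permutation within antibodies between conditions, and sign flips within lists. The permutation test was tested on simulated data, and all were checked on small examples with known answers. Named sequences were the 12 of largest mean share, the 5 largest called differences in each direction between antibodies, up to 8 per condition by mean share, those found with 1 antibody, and the 5 member regions of highest percentile. The members, lists and tests were chosen with earlier results of these data known. Protein-coding genes on the sequences could not be placed, since the RefSeq table (GRCh38.p14) names no contig, so genes are those of the same-numbered interval of the chromosome. Python 3 with numpy, pandas and scipy was used. Same-numbered replicates did not deviate together (correlation over 204 sequences of -0.271 to 0.222), so no pairing was assumed.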

Additional observations from a re-analysis of the deposited data

Results flagged for a closer look

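Among 38 sets of 6 lists checked for a single stray value, where chance alone gives about 1 in 20, 2 were found. CHR_HG2002_PATCH held 0.373% in WT anti-YTHDF1 replicate 2, against 0.175% to 0.242% in the other 5 anti-YTHDF1 lists. CHR_HG26_PATCH held 0.148% in siARID1A anti-ARID1A replicate 2, against 0.159% to 0.164% in the other 5 anti-ARID1A lists.

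For some values both lists of a condition lay on opposite sides of WT with the 2 antibodies. The values were picked by that pattern. It alone fixes the exact permutation p of the difference at 0.0556, the smallest the design allows, so the p adds no support. In siARID1A relative to WT, KI270733.1 was 2.75 times with anti-ARID1A and 0.779 times with anti-YTHDF1. GL000220.1 was 2.50 and 0.743 times, CHR_HG2002_PATCH 1.17 and 0.640 times, the share of peaks on extra-chromosomal sequences 1.09 and 0.931 times and the signal share of alternate loci 1.10 and 0.907 times, in the same order of antibodies. In YTHDF1-KO relative to WT, CHR_HSCHR8_3_CTG7 was 1.08 times with anti-ARID1A and 0.881 times with anti-YTHDF1. The mitochondrial share of the siARID1A anti-ARID1A lists, 44.9% and 49.5%, also stood apart, and its part in these values was not tested.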

How the results depend on the processing

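Between antibodies (anti-ARID1A minus anti-YTHDF1), the signal share and the share of peaks kept their direction and passed the test under every alternative of processing and without any 1 list, with 2 exceptions. On scaffolds alone, a division chosen after seeing the data, the signal share differed by -0.673 points (adjusted p = 0.0952, exact permutation). With the replicate number as a replicate block, the differences of -3.69 and -2.47 points had an exact p of 0.0312, the smallest that 6 pairs allow, and adjusted values of 0.188; per sequence the block gave 0 calls in either direction, since no p that small can pass the adjustment. The difference in peak number was -1186 in lists cut to equal length. The width difference passed among the stricter peaks, the upper 50% of a list by highest signal (418 bp), and at equal length (981 bp), and ran from 236 to 348 bp without 1 list. The sequences called higher with anti-ARID1A numbered 21 among the stricter peaks and 9 to 17 without 1 list.

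Differences from WT that passed no test also changed sign. For the signal share, siARID1A minus WT was -0.28 points with mitochondrial signal in the denominator and -0.157 on alternate loci and patches, and YTHDF1-KO minus WT was -0.326 among the stricter peaks, -0.0505 on scaffolds and -0.0857 to 0.342 without 1 list. For the peak number, YTHDF1-KO minus WT was -124 among the stricter peaks and -33 to 453 without 1 list, and siARID1A minus WT was 52.5 at equal length, 82.8 on scaffolds and -341 to 145 without 1 list. For the share of peaks, YTHDF1-KO minus WT was -0.652 among the stricter peaks and -0.0066 on scaffolds, and siARID1A minus WT was 0.121 at equal length, 0.116 on scaffolds and -0.184 to 0.0539 without 1 list. Sequences apart from WT without overlap numbered 22 above in YTHDF1-KO among the stricter peaks. Without 1 list, which leaves an arm with 1 list and loosens the criterion, they numbered 41 to 58 above and 18 to 28 below in YTHDF1-KO, and 35 to 74 above and 25 to 34 below in siARID1A.

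Against chromosomal peaks, the log2 width differed by 0.0059 among stricter peaks and 0.0779 on scaffolds, the percentile of total signal by 14.9 on scaffolds and -0.324 on alternate loci and patches, and that of signal per base by -0.0375 on alternate loci and patches. Regions in all 12 lists fell to 0.386% when 50% of a region had to be covered. The causes were not tested. Depth is unknown and limits all shares.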
